A study of Drosophila melanogaster with 33 samples.

Results

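U and Uextra are sequences of the Drosophila melanogaster genome build dm3 that were never placed on a chromosome, and they held 17638 of the 94396 peaks in 13 ChIP-seq peak lists (18.7%, 95% interval 18.4 to 18.9%). The members were all peaks whose chromosome name was U or Uextra, 2517 on U and 15121 on Uextra. Both sequences are strings of assembly scaffolds joined in an arbitrary order, so neighbouring positions need not be neighbours in the fly. U and Uextra are rich in satellites, transposons and other repeats, much of them from the heterochromatin around centromeres and on the Y chromosome, and Uextra gathers the smaller scaffolds of lower quality. Short reads from repeats can match several places, and the sources used here do not say how such reads were treated.

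The study profiled S2-AbdA cells and S2 cells. S2-AbdA cells are S2-DRSC cells stably transfected with HA::AbdA, an HA-tagged form of the Hox protein Abdominal-A, which gives abdominal segments their identity, and S2 cells are the parental S2-DRSC line, derived from late embryos and wild type in the labels. Copper sulphate (10 µM) was given to both lines for 24 h, and the labels name neither the promoter of the transgene nor whether the transfected line is 1 clone. The 33 samples fell into 18 groups, with 2 replicates for each of 6 factors in each line, 2 of HA-AbdA in S2-AbdA cells, 1 HA control of S2 cells and 6 inputs. The control and the inputs had no list used here, and the labels do not say whether replicates were separate cultures.

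The antibodies recognised the HA tag of AbdA and 6 chromatin or transcription factors. Rpb3 belongs to RNA polymerase II, and Ser2P is the phosphorylated polymerase that elongates along genes. M1BP and GAF bind short sequence motifs in promoters. The Polycomb group represses genes through chromatin: dRing belongs to its complex PRC1, and E(z) is the enzyme of PRC2 that methylates histone H3. In the fly, repeat-rich heterochromatin is packaged largely by a different system built on HP1.

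Each factor had a single deposited peak list in each line, and HA-AbdA had 1 in S2-AbdA cells, so no spread between replicates could be measured, and the lists hold no read counts, so depth is unknown. Scores have no stated unit and served only to rank peaks within a list. Intervals are exact Clopper-Pearson 95% intervals and include only counting error. The tests below took the 6 factors as units in an exact two-sided sign-flip permutation, which over 6 factors cannot give a p below 0.0312, and p-values were adjusted over 5 tests with the Benjamini-Hochberg method. Such a p describes these lists and not cultures. Peaks are named by dm3 position, with no gene assigned.

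The 13 lists fell into 9 that were rich in peaks in U and Uextra and 4 that held almost none. Ser2P, M1BP, dRing and E(z) were rich in both lines, and GAF was rich in S2 cells alone. Rpb3 of both lines, HA-AbdA and GAF of S2-AbdA cells held 66 peaks together, against 17572 in the 9 rich lists. The gap between the kinds was wide: each of the 9 had more than 10% of its peaks in U and Uextra, and the largest share among the 4 was 0.304%.

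Ser2P, the mark of elongating polymerase, had the highest shares. It had 2627 of 6377 peaks in U and Uextra in S2-AbdA cells (41.2%, 40.0 to 42.4%), against 2548 of 4309 in S2 cells (59.1%, 57.6 to 60.6%). The counts differed little, and the lower share in S2-AbdA cells went with a longer list. Rpb3, another measure of the same polymerase, had 27 of 8896 peaks there in S2-AbdA cells (0.304%, 0.200 to 0.441%) and 20 of 9370 in S2 cells (0.213%, 0.130 to 0.329%).

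The Polycomb proteins were next. dRing had 2225 of 6615 peaks in U and Uextra in S2-AbdA cells (33.6%, 32.5 to 34.8%) and 1648 of 4891 in S2 cells (33.7%, 32.4 to 35.0%). E(z) had 2349 of 6558 in S2-AbdA cells (35.8%, 34.7 to 37.0%) and 2083 of 6619 in S2 cells (31.5%, 30.4 to 32.6%). The intervals of the lines overlapped for dRing and did not for E(z), but they hold counting error only. Without replicate lists, neither outcome tests a difference between the lines.

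Among the promoter factors, M1BP had 1350 of 6639 peaks in U and Uextra in S2-AbdA cells (20.3%, 19.4 to 21.3%) and 1276 of 7157 in S2 cells (17.8%, 16.9 to 18.7%). GAF had 12 of 9530 in S2-AbdA cells (0.126%, 0.0651 to 0.220%), against 1466 of 7083 in S2 cells (20.7%, 19.8 to 21.7%). HA-AbdA had 7 of 10352 peaks there (0.0676%, 0.0272 to 0.139%). GAF was thus the factor whose list changed kind between the lines. The labels pair the GAF samples of S2-AbdA cells with input code C, which they share with HA-AbdA, and the other factors of that line with code D; all S2 factors have code B. The lists with code C held 0.126% for GAF and 0.0676% for HA-AbdA, while Rpb3 was also low with codes D and B, so for GAF the line and the input code cannot be told apart.

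Over the 6 factors, the share in S2-AbdA cells minus that in S2 cells averaged -5.27 percentage points (SD 10.99, exact sign-flip p = 0.469, adjusted p = 0.594), with 3 of 6 differences positive. The test did not pass, and the spread came mainly from Ser2P, at -17.9 points, and GAF, at -20.6 points.

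**Figure D1:**
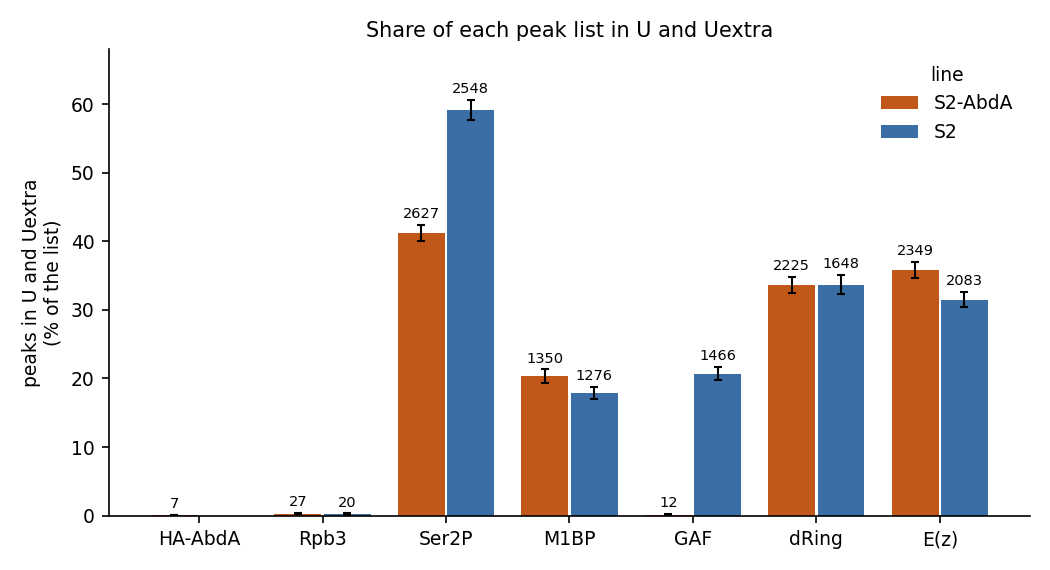
Share of each peak list that lay in U and Uextra (vertical axis, % of the list), for each antibody (horizontal axis) in S2-AbdA cells and S2 cells; bars are 1 list each, error lines are exact 95% intervals for counting error and the numbers above are peaks. Ser2P reached 41.2% in S2-AbdA cells and 59.1% in S2 cells, while HA-AbdA, both Rpb3 lists and GAF of S2-AbdA cells did not exceed 0.304%.

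Peaks in U and Uextra stood high, at the top and on average, in the Ser2P, dRing and E(z) lists. Of the 100 highest-scoring Ser2P peaks, 95 lay in U and Uextra in S2-AbdA cells and 97 in S2 cells. For dRing the number was 66 in S2-AbdA cells and 68 in S2 cells, and for E(z) it was 60 in S2-AbdA cells and 46 in S2 cells. Each of these 6 numbers exceeds the share of U and Uextra in the list as a whole. GAF of S2 cells had 57 of its highest 100 there, M1BP had 25 in S2-AbdA cells and 23 in S2 cells, and the 4 sparse lists had 0.

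On a rank scale where 0 is the weakest and 100 the strongest peak of a list, Ser2P peaks in U and Uextra had a mean percentile of 67.0 in S2-AbdA cells and 61.4 in S2 cells, against 37.6 in S2-AbdA cells and 32.0 in S2 cells on the 6 arms (X, 4 and both arms of the chromosomes numbered 2 and 3). dRing peaks averaged 62.3 in S2-AbdA cells and 62.0 in S2 cells, and 43.2 on the arms in either line. E(z) peaks averaged 58.9 in S2-AbdA cells and 64.1 in S2 cells, against 44.2 in S2-AbdA cells and 42.5 in S2 cells on the arms. All 3 factors also ranked above the arms on the mapped heterochromatin scaffolds. Ser2P averaged 50.8 in S2-AbdA cells and 58.8 in S2 cells there, dRing 54.4 in S2-AbdA cells and 55.4 in S2 cells, and E(z) 58.7 in S2-AbdA cells and 62.8 in S2 cells, close to its values in U and Uextra.

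M1BP went the other way, with mean percentiles of 43.3 in S2-AbdA cells and 39.8 in S2 cells, below those of its arm peaks, 52.2 in S2-AbdA cells and 52.6 in S2 cells. GAF of S2 cells had both a large share of the top 100 and a low mean, 45.5 against 51.4 on the arms, so its U and Uextra peaks were many at the top and lower than the arm peaks on average. The few Rpb3 peaks averaged 32.8 in S2-AbdA cells and 35.2 in S2 cells, against 50.1 on the arms in each. Averaged over the lines and the 6 factors, the percentile in U and Uextra was 4.90 above that of the arms (SD 19.4, exact sign-flip p = 0.531, adjusted p = 0.594; 3 of 6 factors positive), so no common direction was found. Among the higher-scoring 50% of each list, the mean difference was -1.32.

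**Figure D2:**
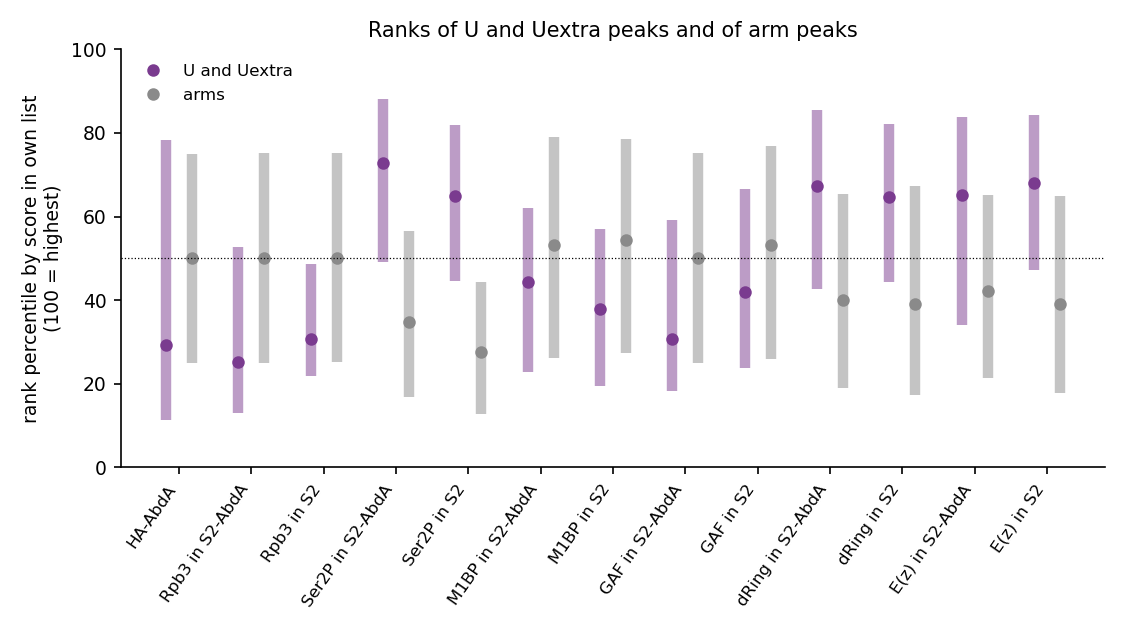
Rank percentile by score within the peak's own list (vertical axis, 100 is the highest), for peaks in U and Uextra and on the arms in each of the 13 lists (horizontal axis); points are medians, bars span the middle 50% of peaks and the dotted line marks 50. The Ser2P median was 72.7 in U and Uextra against 34.7 on the arms in S2-AbdA cells, and the M1BP median was 44.2 against 53.1.

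The single strongest peaks of several lists lay in unplaced sequence. The first Ser2P peak of S2-AbdA cells was at U 1941134 to 1942213 and shared its region with dRing and E(z) of both lines, with Ser2P of S2 cells and with GAF of S2 cells. The first dRing peak was at Uextra 22939376 to 22940086 in S2-AbdA cells and at Uextra 7364631 to 7365528 in S2 cells. The first E(z) peak of S2 cells was at Uextra 14851875 to 14852890, and the highest in U and Uextra of S2-AbdA cells, ranked 2, was at Uextra 18445673 to 18446388. These last 4 peaks lay in regions that the Ser2P, M1BP, dRing and E(z) lists of both lines shared.

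At the top of the M1BP and GAF lists several peaks had the same score. In S2-AbdA cells, 2 M1BP peaks tied and both lay in U or Uextra, one of them at Uextra 3706638 to 3707463. In S2 cells, 3 of 4 tied M1BP peaks lay there, and so did 5 of 6 tied GAF peaks of that line. None of the 5 peaks tied at the top of the GAF list of S2-AbdA cells lay in U or Uextra.

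Widths were compared within lists because they depend on the antibody and the peak caller. Ser2P, whose lists held broad peaks, had a median width of 667 bp in U and Uextra in S2-AbdA cells and 685 bp in S2 cells, against 1350 bp in S2-AbdA cells and 814 bp in S2 cells on the arms. The widest peak in unplaced sequence, 16656 bp, was also Ser2P, of S2 cells. M1BP medians were 485 bp in S2-AbdA cells and 487 bp in S2 cells, against 514 bp in S2-AbdA cells and 526 bp in S2 cells on the arms. GAF of S2 cells measured 446.5 bp against 684 bp on the arms. E(z) of S2 cells was wider than on the arms, with 469 bp against 405 bp, while E(z) of S2-AbdA cells had 403 bp against 411 bp. HA-AbdA was also wider, with 1068 bp against 836 bp over its 7 peaks, and the 12 GAF peaks of S2-AbdA cells had 580 bp against 577 bp. Over the 6 factors, the log2 ratio of the median width in U and Uextra to that on the arms averaged -0.23 (SD 0.26, exact sign-flip p = 0.0938, adjusted p = 0.469), negative in all factors but E(z) when the lines were averaged, and did not pass the test.

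Merging overlapping peaks of all 13 lists gave 3637 regions in U and Uextra, 502 on U and 3135 on Uextra, that covered 3.17 Mb. Their median width was 658 bp. The mapped arms gave 16289 regions over 24.0 Mb, with a median width of 844 bp. Ser2P was the list most often present in the unplaced regions, in 71.5% for S2-AbdA cells and 69.5% for S2 cells. E(z) was present in 55.4% for S2-AbdA cells and 50.2% for S2 cells. dRing was present in 50.2% for S2-AbdA cells and 39.8% for S2 cells, and M1BP in 33.6% for S2-AbdA cells and 32.3% for S2 cells. GAF was present in 0.330% of regions in S2-AbdA cells and 37.97% in S2 cells. HA-AbdA was present in 0.192% of the regions in U and Uextra, against 56.9% of those on the arms. Arm shares for S2-AbdA cells were 21.4% for Ser2P, 17.7% for E(z), 18.6% for dRing, 24.4% for M1BP and 47.5% for GAF. For S2 cells they were 9.59%, 19.9%, 14.4%, 27.7% and 29.2% in the same order.

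Regions in U and Uextra were shared by many lists but seldom by all. Of the 3637 regions, 1322 had peaks of 6 or more lists (36.3%, 34.8 to 37.9%), against 25.02% on the arms, 21.0% on the mapped heterochromatin scaffolds and 27% of all merged regions. With 8 or more lists there were 913 regions (25.1%), against 13.7% on the arms and 15.8% of all merged regions. Beyond 9 lists the order turned, with 12 regions (0.330%) in U and Uextra and 5.29% on the arms. Such a region in U and Uextra had to hold at least 1 of the 4 sparse lists, since only 9 lists were rich there. The sparse lists had peaks in 33 regions (0.907%), so this turn follows from their few peaks and is no separate result. Regions with a single list made up 25.4%, against 34.8% on the arms. Merged regions share inputs and antibodies and are no replicates, so these shares were not tested.

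**Figure D3:**
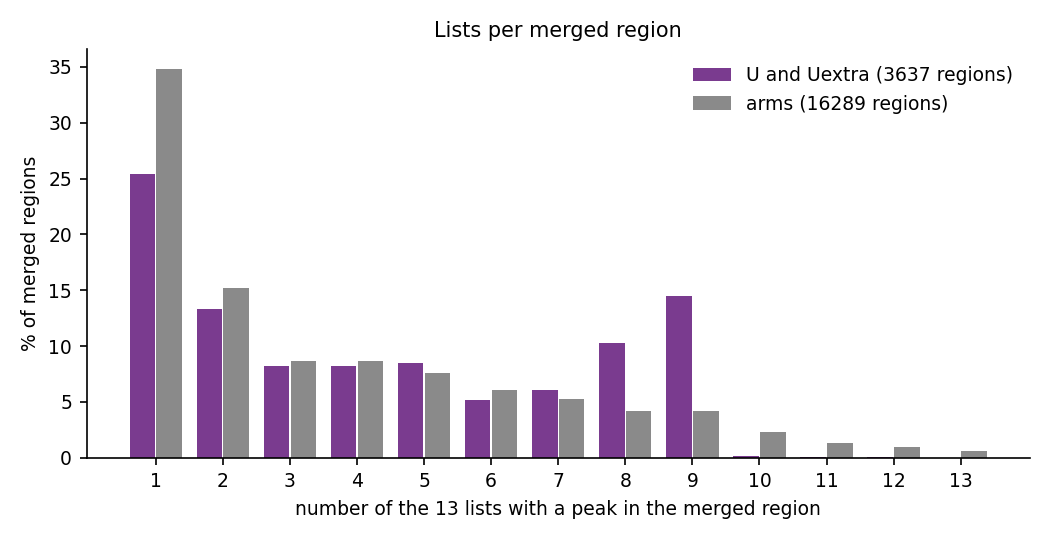
Number of the 13 lists with a peak in a merged region (horizontal axis) against the share of merged regions (vertical axis, %), for U and Uextra and for the arms. Regions in U and Uextra had a second peak at 8 lists (10.3%) and 9 lists (14.5%) and nearly none above 9.

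A fixed set of factors made up many of the widely shared regions. The lists of Ser2P, M1BP, dRing and E(z) of both lines were all present in 837 regions in U and Uextra (23.0%). On the mapped heterochromatin scaffolds they were all present in 48 of 347 regions (13.8%), and on the arms in 352 (2.16%). The share was 6.1% of all merged regions, which include those in U and Uextra. Of the 837 regions, 533 (63.7%) also had GAF of S2 cells, and 3 had GAF of S2-AbdA cells. GAF of S2 cells was more frequent in the regions with those 8 lists on the arms, at 79.8%. GAF of S2-AbdA cells was present in 43.2% of them, HA-AbdA in 46.0% and Rpb3 in 48.6% for S2-AbdA cells and 48.9% for S2 cells. In U and Uextra, HA-AbdA was present in 1 of the 837, and Rpb3 in 15 for S2-AbdA cells and 10 for S2 cells. On the scaffolds, GAF of S2 cells was present in 36 of the 48 regions (75%). HA-AbdA, GAF of S2-AbdA cells and the Rpb3 list of each line were present in 1 each there. Width also differed, with a median of 930 bp for the regions with those 8 lists in U and Uextra. It was 6049.5 bp on the arms and 6152 bp on the scaffolds.

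The most frequent single combination was exactly the 9 rich lists, in 524 regions (14.4%), against 135 on the arms (0.829%). GAF of S2 cells alone came next, in 378 regions (10.4%), against 251 on the arms (1.54%) and 107 of the 347 regions on the mapped heterochromatin scaffolds. Ser2P of both lines with no other list was found in 302 regions (8.30%), against 44 on the arms (0.270%). The 8 lists without GAF were found in 298 (8.19%), against 22 on the arms (0.135%). There were 184 combinations in all. M1BP was rarely alone, in 3 of the 3637 regions for S2-AbdA cells and 26 for S2 cells. It was also rarely alone on the arms, in 9 of 16289 regions for S2-AbdA cells and 99 for S2 cells.

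U and Uextra resembled each other in wide sharing and differed in single-list regions. Regions with 6 or more lists made up 36.9% on U and 36.3% on Uextra. Single-list regions made up 38.6% on U and 23.3% on Uextra. Of the 66 peaks of the sparse lists, U held 5 of 7 for HA-AbdA, 8 of 12 for GAF of S2-AbdA cells, 12 of 27 for Rpb3 of S2-AbdA cells and 13 of 20 for Rpb3 of S2 cells, although it held 14.3% of all peaks in U and Uextra.

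Within a line, overlaps between factors differed in size between U and Uextra and the arms. M1BP peaks lay on Ser2P peaks in 92.7% of cases in S2-AbdA cells and 90.2% in S2 cells. On the arms the share was 48.7% in S2-AbdA cells and 26.1% in S2 cells, and over the whole lists 58.8% in S2-AbdA cells and 38.8% in S2 cells. dRing lay on Ser2P in 90.3% in S2-AbdA cells and 96.5% in S2 cells. Arm peaks gave 51.3% in S2-AbdA cells and 38.5% in S2 cells, and over the whole lists 65.7% in S2-AbdA cells and 60% in S2 cells. E(z) lay on Ser2P in 86.8% in S2-AbdA cells and 89.6% in S2 cells. On the arms the share was 52.8% in S2-AbdA cells and 38.5% in S2 cells, and over the whole lists 66.3% in S2-AbdA cells and 56.4% in S2 cells. Most sites of these 3 factors in U and Uextra thus lay on Ser2P, and the shares were also high on the mapped heterochromatin scaffolds. There M1BP lay on Ser2P in 91.2% in S2-AbdA cells and 81.5% in S2 cells. dRing did in 89.4% in S2-AbdA cells and 92.3% in S2 cells, and E(z) in 87.3% in S2-AbdA cells and 90.7% in S2 cells.

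Rpb3, with 27 peaks in U and Uextra in S2-AbdA cells and 20 in S2 cells, could lie under few sites of other factors there, so the shares of those sites on Rpb3 are bounded by its number of peaks. M1BP lay on Rpb3 in 1.26% of cases in U and Uextra in S2-AbdA cells and 0.784% in S2 cells. Arm peaks gave 60.6% in S2-AbdA cells and 63.9% in S2 cells, and over the whole lists 47% in S2-AbdA cells and 51.3% in S2 cells. Ser2P itself lay on Rpb3 in 0.761% in S2-AbdA cells and 0.549% in S2 cells. On the arms the share was 63.9% in S2-AbdA cells and 66.7% in S2 cells, and over the whole lists 37% in S2-AbdA cells and 26.4% in S2 cells. The rare Rpb3 peaks did share sites, since 25 of 27 in S2-AbdA cells and 18 of 20 in S2 cells lay on Ser2P, against 40.5% of the whole Rpb3 list in S2-AbdA cells and 16% in S2 cells.

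The Polycomb pair overlapped more often in U and Uextra than on the arms, and dRing lay on E(z) most often on the mapped heterochromatin scaffolds. dRing lay on E(z) in 75.8% of cases in S2-AbdA cells and 85.4% in S2 cells. Arm peaks gave 50.5% in S2-AbdA cells and 69.4% in S2 cells, and over the whole lists 60.2% in S2-AbdA cells and 75.6% in S2 cells. On the scaffolds it was 87.5% in S2-AbdA cells and 93.9% in S2 cells. E(z) lay on dRing in U and Uextra in 71.1% in S2-AbdA cells and 66.9% in S2 cells. On the arms the share was 48.6% in S2-AbdA cells and 47.6% in S2 cells, and over the whole lists 57.4% and 54.5%. The scaffold share was 68.1% in S2-AbdA cells, below that in U and Uextra, and 71.8% in S2 cells, above it. GAF lay on Ser2P in 5 of 12 cases in S2-AbdA cells and 69.6% in S2 cells. On the arms the share was 21.8% in S2-AbdA cells and 19.0% in S2 cells, and over the whole lists 21.8% in S2-AbdA cells and 29.9% in S2 cells. In the other direction, 36.9% of Ser2P peaks in S2 cells lay on GAF in U and Uextra, and 48.9% did on the arms.

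Averaged over all partners and both lines, the overlap was 9.84 percentage points higher in U and Uextra than on the arms (SD 17.4 over 6 factors, exact sign-flip p = 0.188, adjusted p = 0.469; 4 of 6 factors positive). The difference was 37.2 points for Rpb3 peaks, which were few, 17.0 for M1BP and 16.3 for GAF, and it was -12.3 for Ser2P and -2.35 for E(z). With peak centres within 250 bp in place of an overlap of 1 bp or more, the mean was 14.7 points and the unadjusted exact p was 0.0312, the smallest possible.

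**Figure D4:**
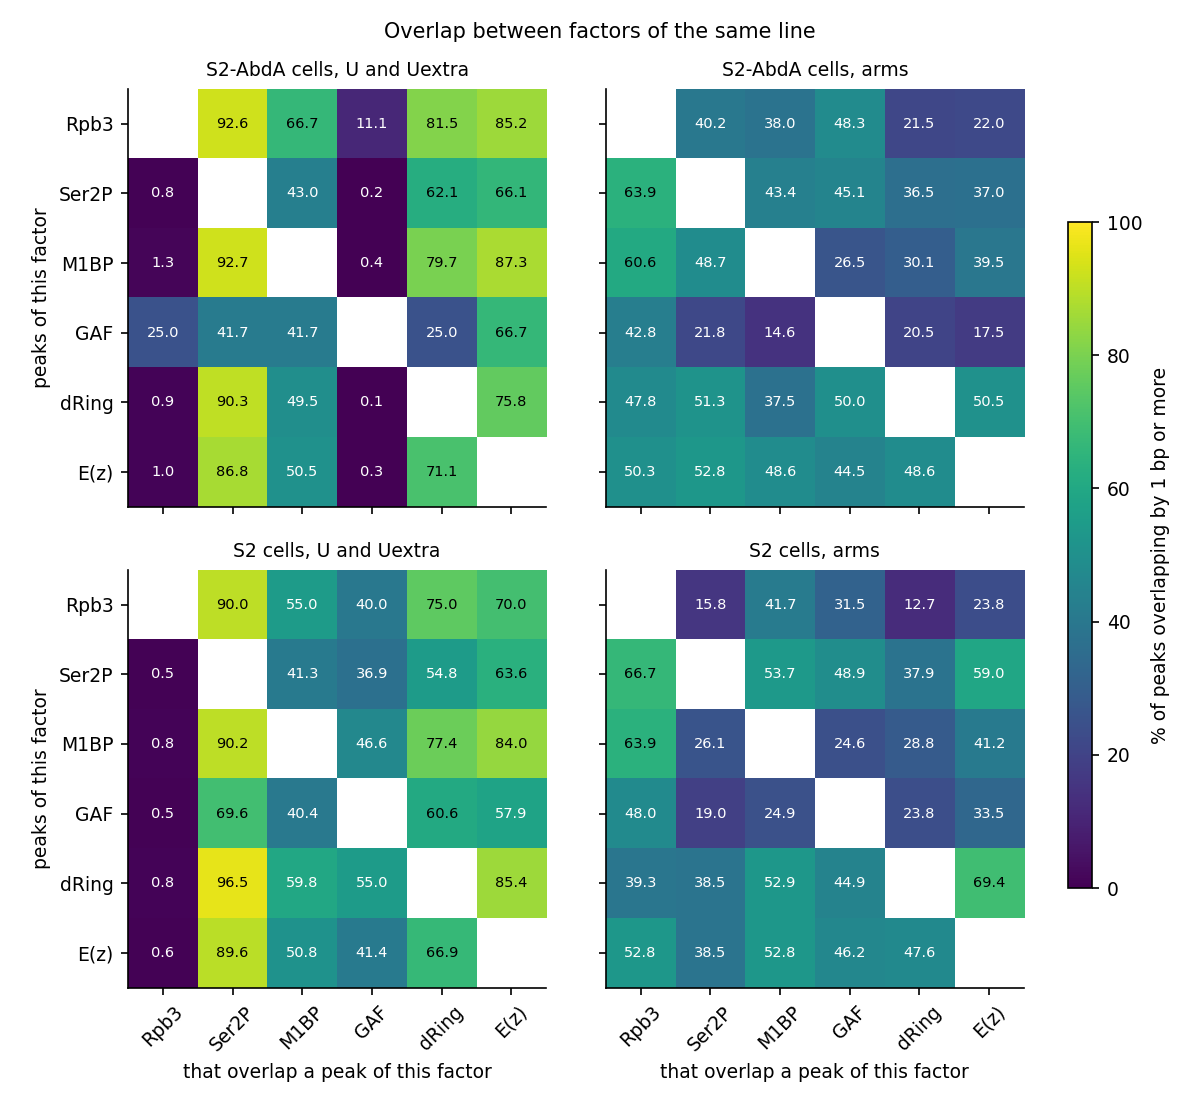
Share of the peaks of the factor in each row that overlap a peak of the factor in each column by 1 bp or more (% of peaks), in S2-AbdA cells (upper panels) and S2 cells (lower panels), in U and Uextra (left) and on the arms (right). The Ser2P column is high in U and Uextra, with 92.7% of M1BP peaks in S2-AbdA cells and 90.2% in S2 cells, while the Rpb3 column holds 1.26% of M1BP peaks in S2-AbdA cells there and 60.6% on the arms.

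E(z), Ser2P and dRing peaks of S2-AbdA cells stood higher in regions that more lists shared, in U and Uextra and on the arms alike. The median rank percentile of E(z) in S2-AbdA cells was 11.7 in regions with no other list, 34.1 in regions of 2 to 5 lists, 58.7 with 6 to 7 lists and 82.1 with 8 or more lists. Ser2P in S2-AbdA cells had 29.4, 66.5, 74.8 and 81.9 in the same classes, and dRing had 28.0, 48.7, 60.3 and 76.4. On the arms, E(z) had 9.39, 30.8, 36.1 and 47.4 in these classes in S2-AbdA cells, Ser2P had 14.3, 23.2, 28.7 and 49.0, and dRing had 13.97, 32.1, 36.4 and 47.4. M1BP had no such order, with 34.1, 51.1, 22.7 and 45.1 in S2-AbdA cells. GAF of S2 cells had 33.1, 34.5, 39.5 and 54.9. In S2 cells the order also held for E(z) in U and Uextra and on the arms, and for Ser2P in U and Uextra. It did not hold for dRing of S2 cells, with 12.3, 53.5, 45.5 and 73.2 in U and Uextra. On the arms dRing of S2 cells had 20.2, 32.6, 45.5 and 40.9, and Ser2P of S2 cells had 23.2, 19.9, 21.4 and 30.9, also out of order.

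For each factor, the lists of both lines were merged into regions that were kept (a peak in both lines), gained (S2-AbdA cells only) or lost (S2 cells only). With 1 list per line, no single region had a test. E(z) had the highest share kept in U and Uextra, 2019 of 2381 regions (84.8%), with 301 gained (12.6%) and 61 lost (2.56%). The excess of gained over lost E(z) regions depended on the score cutoff. Among the higher-scoring 50% of each list, 119 were gained and 126 lost, while lists of equal length gave 301 gained and 58 lost. Over the whole genome, 73% of E(z) regions were kept, 12.6% gained and 14.5% lost. M1BP kept 1166 of 1449 (80.5%), gained 176 (12.1%) and lost 107 (7.38%) there, against 75.4%, 8.51% and 16.1% over the whole genome.

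Ser2P kept 2285 of 2845 regions (80.3%), gained 317 (11.1%) and lost 243 (8.54%). The order of gained and lost depended on list length. With lists of equal length, Ser2P kept 2138 of 2674 regions, gained 145 and lost 391. Over the whole genome 58.8% of Ser2P regions were kept, 36.6% gained and 4.61% lost, and on the arms 41.8% were kept and 56.6% gained. Of the 2430 gained Ser2P regions of the genome, 2075 lay on the arms. dRing kept 1450 of 2391 (60.6%), gained 747 (31.24%) and lost 194 (8.11%), against 42.8%, 38.6% and 18.6% over the whole genome. Rpb3, with 29 regions, kept 18, gained 9 and lost 2, against 69.2%, 11.8% and 19.1% over the whole genome.

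GAF stood apart. Of 1471 GAF regions in U and Uextra, 7 were kept (0.476%), 5 gained (0.340%) and 1459 lost (99.2%), against 35.2% kept, 41.1% gained and 23.7% lost over the whole genome. On the arms 40.7% were kept, 47.7% gained and 11.6% lost, and on the mapped heterochromatin scaffolds 80.8% were lost. The shares of these lost GAF peaks that lay on other factors were close in both lines. Of the 1459 lost GAF peaks, 69.4% lay on Ser2P of S2-AbdA cells and 69.7% on Ser2P of S2 cells. M1BP was there in 42.8% in S2-AbdA cells and 40.4% in S2 cells, dRing in 61.9% in S2-AbdA cells and 60.7% in S2 cells, and E(z) in 59.97% in S2-AbdA cells and 57.8% in S2 cells. All 1466 GAF peaks of S2 cells in U and Uextra had nearly the same shares, since nearly all were lost. Of the whole GAF list of S2 cells, 29.9% lay on Ser2P, 28.2% on M1BP, 31.7% on dRing and 38.6% on E(z) of that line. HA-AbdA lay on 1 of the 1459.

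Over the 6 factors, the share kept was 7.03 points higher in U and Uextra than on the arms (SD 28.1, exact sign-flip p = 0.594, adjusted p = 0.594; 4 of 6 factors positive), which did not pass the test. Without GAF the mean was 16.5 points (exact p = 0.188, where 5 factors allow no p below 0.0625), and without Ser2P it was 0.741 points. With the mapped heterochromatin scaffolds in place of the arms, the mean difference was 0.633 points (exact sign-flip p = 0.906). Ser2P, M1BP and E(z) kept a smaller share on the scaffolds than in U and Uextra, while Rpb3, GAF and dRing kept a larger one. Higher retention than on the arms was thus not particular to U and Uextra.

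**Figure D5:**
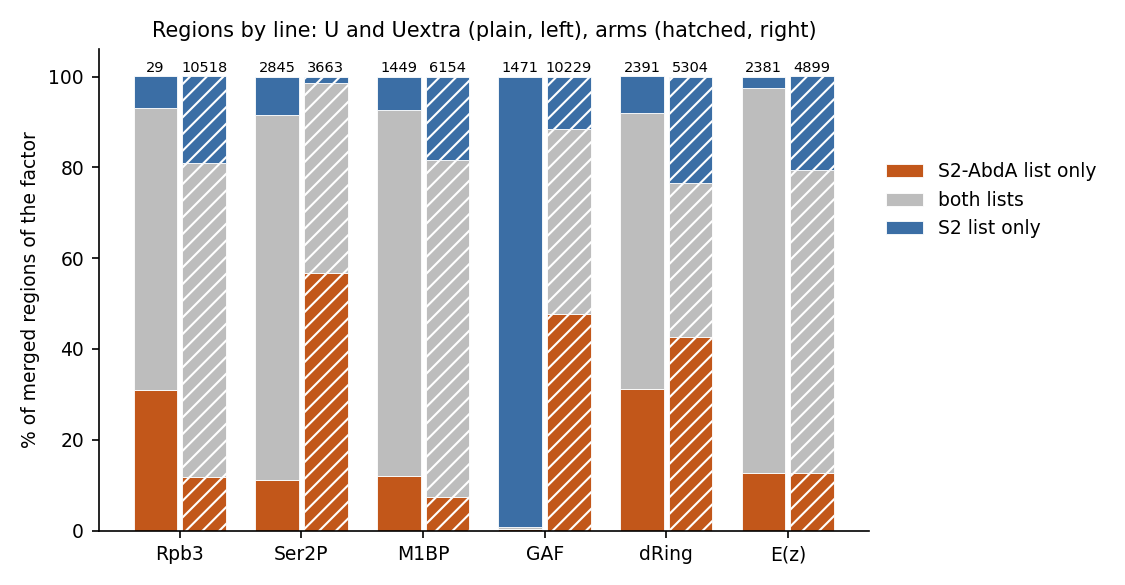
Share of the merged regions of each factor (vertical axis, %) with a peak in S2-AbdA cells only, in both lines or in S2 cells only, in U and Uextra (plain bars) and on the arms (hatched bars); the number of regions stands above each bar. GAF in U and Uextra had 99.2% of its regions in S2 cells only, while the other factors had 60.6% to 84.8% in both lines.

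Kept regions had the stronger peaks. In S2-AbdA cells the median percentile of gained Ser2P peaks was 29.8, against 77.5 for kept ones. Gained E(z) peaks had 17.6, against 70.2 for kept ones, and gained M1BP peaks had 9.29, against 47.6. dRing had 44.6 for gained peaks, against 77.2 for kept ones. The arms had the same order in S2-AbdA cells. Gained peaks there had 21.0 for Ser2P, 16.0 for E(z), 44.0 for M1BP and 25.9 for dRing. Kept peaks there had 57.2 for Ser2P, 48.0 for E(z), 53.4 for M1BP and 63.6 for dRing. In U and Uextra, lost peaks of S2 cells likewise had lower medians than kept ones. The medians were 20.7 against 69.4 for E(z), 7.64 against 40.2 for M1BP, 27.1 against 68.3 for dRing and 39.8 against 67.5 for Ser2P. Lost GAF peaks had a median of 41.5, near the 42.0 of all GAF peaks of S2 cells in U and Uextra, since nearly all were lost.

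Within kept regions the ranks of the lines ran in parallel for 5 of the 6 factors. As a description over regions that share antibody and caller, Spearman's rho between the lines was 0.91 for E(z) (2019 regions), 0.88 for M1BP (1166), 0.80 for Ser2P (2285), 0.74 for dRing (1450) and 0.71 for Rpb3 (18). GAF had -0.14 over its 7 kept regions. On the arms rho was 0.76 for E(z), 0.90 for M1BP, 0.69 for Ser2P, 0.57 for dRing, 0.84 for Rpb3 and 0.66 for GAF. Between factors of 1 line the ranks in U and Uextra were closest for dRing and E(z) of S2 cells (0.66, 1384 regions) and for Ser2P and dRing (0.58 in S2-AbdA cells over 1632 regions and 0.58 in S2 cells over 1396). On the arms rho was 0.50 for dRing and E(z) of S2 cells. For Ser2P and dRing it was 0.43 in S2-AbdA cells and 0.61 in S2 cells there.

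The region with most lists was U 7542671 to 7545222, the only one in U and Uextra with all 13. E(z) had its highest peak on U there in both lines, ranked 14 in S2-AbdA cells and 23 in S2 cells, and Ser2P ranked 79 in S2-AbdA cells and 48 in S2 cells. M1BP ranked 1529 in S2-AbdA cells and 3346 in S2 cells. GAF ranked 6353 in S2-AbdA cells and last, 7083, in S2 cells, and HA-AbdA ranked 8890 of 10352. Rpb3 had 2 peaks in each line. One lay near the right end, at 7544063 to 7545212 in S2-AbdA cells and 7544049 to 7545222 in S2 cells, with the HA-AbdA peak and the GAF peak of S2-AbdA cells. The other lay near the left end, at 7543026 to 7543481 in S2-AbdA cells and 7543013 to 7543496 in S2 cells, and overlapped the GAF peak of S2 cells at 7542902 to 7543168.

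A compact region of 852 bp at Uextra 26549711 to 26550562 had 12 lists, all but HA-AbdA. Its Ser2P peak ranked 7 in S2-AbdA cells and 3 in S2 cells. Its M1BP peak ranked 11 in S2-AbdA cells and 27 in S2 cells, and its E(z) peak 25 in S2-AbdA cells and 41 in S2 cells. The GAF peak there ranked 6288 in S2-AbdA cells and 33 in S2 cells. Rpb3 ranked 3759 in S2-AbdA cells and 5128 in S2 cells, its highest peak on Uextra in each line. The site thus ranked within the top 207 of every rich list and much lower in the sparse ones.

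The other region with 12 lists, U 4022364 to 4030051, held 19 peaks over 7688 bp. Ser2P of S2-AbdA cells spanned it as 1 peak, and Ser2P of S2 cells as 2 peaks. Rpb3 had 3 peaks in each line along it. GAF ranked 7652 in S2-AbdA cells and 142 in S2 cells, at the left end, where M1BP ranked 41 in S2-AbdA cells and 841 in S2 cells.

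Regions with 11 lists, each without HA-AbdA and GAF of S2-AbdA cells, lay at Uextra 2047029 to 2048851, Uextra 956029 to 957291, U 4015749 to 4017809 and Uextra 1484188 to 1486189. The highest-ranked regions with 10 lists were at Uextra 7493148 to 7494550, Uextra 693619 to 695049 and Uextra 17984987 to 17985882. Rpb3 of at least 1 line was present in all 10 of these most shared regions. The choice of regions nearly fixed this, because more than 9 lists require a sparse list. Rpb3 had 27 of the 66 sparse peaks in S2-AbdA cells and 20 in S2 cells.

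The 7 HA-AbdA peaks are the full set in unplaced sequence. The strongest, at Uextra 438814 to 439881, ranked 777 and shared its region with Ser2P of S2 cells and, in either line, with E(z) and GAF. The next, at U 5630176 to 5631574, ranked 1471 and lay with M1BP, GAF and E(z) of both lines. At U 1178776 to 1180258, an HA-AbdA peak of rank 2999 lay with Rpb3 of both lines and GAF of S2-AbdA cells, and with none of the 9 rich lists. The highest Rpb3 peak of S2 cells in U, ranked 2189, lay at that site, at 1178861 to 1179291.

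The other HA-AbdA peaks ranked lower. The peak at Uextra 3783082 to 3783540 ranked 7301 and shared its region with GAF and E(z) of S2 cells, and the peak at U 912274 to 912630 ranked 9465 and stood alone. At U 7457844 to 7458358 the rank was 9613, and the region held the highest gained GAF peak (U 7457694 to 7458342, rank 4193). In S2-AbdA cells, GAF overlapped 5 of the 7 HA-AbdA peaks, against 42.4% of the whole HA-AbdA list, and E(z) overlapped 4, against 20.7%. M1BP overlapped 3, against 29.4%, and Rpb3 2, against 45.6%. Ser2P and dRing overlapped 1 each, against 26.2% for Ser2P and 17.8% for dRing. What the HA antibody gives at these 7 sites without AbdA was not analysed here.

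The GAF peaks of S2-AbdA cells in U and Uextra lay on 7 kept and 5 gained regions. At 3 of the kept regions, the rank was near the top in S2 cells and low in S2-AbdA cells: 6288 in S2-AbdA cells and 33 in S2 cells at Uextra 26549715 to 26550544, 6848 in S2-AbdA cells and 119 in S2 cells at Uextra 1067461 to 1068577, and 7652 in S2-AbdA cells and 142 in S2 cells at U 4022372 to 4023589. The percentile was higher in S2-AbdA cells at 1 of the 7, U 1185863 to 1186428, with 68.5 in S2-AbdA cells and 57.3 in S2 cells. The strongest lost GAF peak was the first of its list in S2 cells, at Uextra 13615084 to 13616008, in a region where the 8 other rich lists all had a peak.

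The highest gained dRing peak, at U 2605856 to 2606276, ranked 2 in S2-AbdA cells and had no dRing peak in S2 cells, although E(z) of either line had a peak in its region. The highest lost dRing peak, at Uextra 10492318 to 10493136, ranked 134 in S2 cells, and its region held Ser2P, M1BP and E(z) of either line. The highest lost M1BP peak, at Uextra 2047060 to 2048221, tied for the first place in S2 cells. In S2-AbdA cells the M1BP list had a peak at 2048401 to 2048701 of that region (rank 5445), which did not overlap it, while Ser2P, dRing and E(z) had overlapping peaks in both lines.

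The highest gained M1BP peak, at Uextra 2150765 to 2151158, ranked 749, with Ser2P and E(z) of both lines in its region. One place, Uextra 5223947 to 5224521, held the highest gained Rpb3 peak (rank 3931) and the highest gained E(z) peak (rank 2021), with M1BP and dRing peaks of S2-AbdA cells only and Ser2P of both lines. The highest gained Ser2P peak (Uextra 28232696 to 28233048, rank 1281) and the highest lost one (Uextra 10087055 to 10087837, rank 446) shared their regions with no other list. The highest lost Rpb3 peak, at U 6560041 to 6560403, ranked 8448, and the highest lost E(z) peak, at Uextra 28998081 to 28998296, ranked 2145.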

How the data were processed

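Peaks were called with MACS2 after alignment with BWA 0.7.12 to dm3, per the submitters' processing notes; settings, how reads with several matches were treated and how replicates were combined are not stated in the labels or files used here. The deposited peak score is the authors' own and has no stated unit, so it only ranked peaks within a list. Members were peaks on U or Uextra. The members and lists were chosen with earlier results of these data known. The reference at hand was Release 6, in which 0 of 1870 sequences are named U or Uextra, so no sequence or gene was used here.

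Each list took its line and antibody from the labels. Computations used pandas 2.3.3, numpy 2.4.6 and Python 3.11.15. Figures were drawn with matplotlib 3.10.9. Starts are 1-based. Percentiles averaged tied scores. Overlap meant 1 bp or more, and 156 overlap counts were all equal to those of bedtools 2.31.1. Intervals came from scipy 1.17.1. The overlap and sign-flip code was tested on simulated data. Named regions were the highest-scoring peak of each list on U and on Uextra, the 10 merged regions with most lists, all HA-AbdA peaks, and the highest-scoring gained and lost region per factor; other peaks were chosen after their values were seen. Alternatives changed the overlap rule, list length, score cutoff, sequences compared and factors included.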

Additional observations from a re-analysis of the deposited data

How the results depend on the processing

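The rank difference between U and Uextra and the arms turned to -1.32 percentile points among the higher-scoring 50% of each list (exact p = 0.656), and was 0.00105 without Ser2P. The overlap difference passed the unadjusted threshold with peak centres within 250 bp (14.7 points, exact p = 0.0312, the smallest that 6 factors allow). The share of regions with 6 or more lists was 31.4% among the higher-scoring 50% of each list and 27.6% without the Ser2P lists, where fewer lists could be shared. The share of HA-AbdA peaks was 0.0193% on Uextra alone. Chosen after seeing the data, leaving out Rpb3 and GAF gave differences of 13.9 percentile points for rank, -0.18 for log2 width, 22.4 points for regions kept and 26.9 points for overlap over 4 factors, where no exact p can fall below 0.125. Of the 47 alternative values of the 7 summary results, 14 left too few factors to reach the threshold of 0.05 and say nothing about it. Of the other 33, 28 kept their direction and their side of the threshold, or stayed within their counting interval. Of the counts of kept, gained and lost regions per factor, 38 of 108 moved by over 1.5 times, mostly with U alone or the higher-scoring 50%. No paired analysis was possible because each antibody and line has 1 list with no replicate columns, and for the same reason no replicate could be left out. Read depth is unknown, so an absent peak sets no limit on binding.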

Other observations

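The widest merged regions gathered at the end of Uextra. The region at 28907394 to 28928884 spanned 21.5 kb and held 61 peaks of 9 lists, and regions of 15.4, 14.5 and 11.1 kb lay at 28987473 to 29002872, 28972375 to 28986859 and 28934458 to 28945570. The last 1 Mb of Uextra, 28 to 29 Mb, held 254 merged regions, and the 1 Mb bins before it held 74 to 141 each. On U the bin of 9 to 10 Mb had most regions, 123, of which 59 had 6 or more lists (48.0%). The widest region on U, 15391 bp at 5288103 to 5303493, held the second-ranked Ser2P peak of S2 cells, itself 15068 bp wide, with M1BP, dRing and E(z) of both lines.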
